A study of Mus musculus with 6 samples.

Results

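The libraries described here came from a droplet-based single-cell RNA sequencing (scRNA-seq) study of mouse brain vascular and neighbouring cells, and the barcodes of interest were those of red blood cells. They were selected on measured values, as barcodes with fewer than 250 detected genes in which more than 50% of the unique molecular identifiers (UMIs, 1 per captured RNA molecule) belonged to the 4 adult globin genes *Hba-a1*, *Hba-a2*, *Hbb-bs* and *Hbb-bt*. By this rule 3343 of the 33273 deposited barcodes were erythrocyte barcodes, 3265 from cortex and 78 from hippocampus. The cortical suspension (prep 1) was made from wild-type female C57Bl/6J mice aged 3 weeks and the hippocampal one (prep 3) from wild-type female C57Bl/6J mice aged 5 weeks. Each pooled 3 animals into 1 suspension, which was run as 3 technical replicates, giving 6 libraries. The animals were perfused through the heart with cold buffered saline, and both tissues were dissociated with dispase II, papain and DNase I, and myelin was removed with Percoll, with no sorting of cells. Region, age and preparation thus cannot be told apart, and the spread over replicates is technical, not between animals.

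Red blood cells form in marrow from nucleated precursors that fill with haemoglobin, a tetramer of alpha and beta globin chains that each hold a haem group. The precursor expels its nucleus, and the reticulocyte that remains can no longer transcribe, so it lives on the transcripts it inherited while it clears its mitochondria and ribosomes. In brain tissue such cells travel in the blood of the vessels, and they are captured in droplets together with the brain's own cells.

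The RNA of these barcodes was first described by its globins and then by what was left. Because globins chose the members, every other transcript was expressed as a share of non-globin UMIs and set against the same share in reference cells, the barcodes of the same libraries with 250 to 6000 genes, mitochondrial UMIs under 25% and a globin share under 1%. There were 12821 reference cells in cortex and 14188 in hippocampus. The limit on genes also bears on every transcript, so the comparisons with reference cells are descriptions, with no test and no p-value. Intervals are exact, at 95%, and cover counting error only. UMIs count molecules by their transcript ends, so levels were not divided by transcript length.

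The promoter sequences of 4 defining genes are shown because the transcripts of these genes mark the barcodes. They are the 250 bases before the RefSeq start of each gene on GRCm38.p6, read along the gene's strand, with motif letters in capitals. The motifs searched on both strands were the GATA-type AGATAA (reverse TTATCT), the KLF-type CCACACCC (reverse GGGTGTGG), the TATA-type TATAAA (reverse TTTATA) and CCAAT (reverse ATTGG).
Hba-a1 (alpha globin, chr11:32283422-32283671, plus strand): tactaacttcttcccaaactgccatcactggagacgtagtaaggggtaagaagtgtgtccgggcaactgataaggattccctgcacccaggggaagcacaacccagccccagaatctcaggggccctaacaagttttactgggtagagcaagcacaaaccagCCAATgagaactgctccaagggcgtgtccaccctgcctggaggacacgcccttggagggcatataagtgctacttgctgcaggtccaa
Hbb-bs (beta globin, chr7:103827929-103828178, minus strand): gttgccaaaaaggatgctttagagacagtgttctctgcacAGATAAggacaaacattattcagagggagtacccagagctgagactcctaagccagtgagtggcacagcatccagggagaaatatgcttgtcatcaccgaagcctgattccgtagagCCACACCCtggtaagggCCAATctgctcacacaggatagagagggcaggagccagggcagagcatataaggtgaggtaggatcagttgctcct
Alas2 (the first enzyme of haem synthesis in erythroid cells, chrX:150547167-150547416, plus strand): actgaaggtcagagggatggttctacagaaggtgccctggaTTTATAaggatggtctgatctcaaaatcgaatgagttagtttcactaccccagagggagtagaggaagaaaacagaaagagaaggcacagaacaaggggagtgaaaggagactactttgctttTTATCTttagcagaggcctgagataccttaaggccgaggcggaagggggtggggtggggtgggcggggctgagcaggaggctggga
Bpgm (bisphosphoglycerate mutase, which sets the oxygen affinity of haemoglobin, chr6:34476106-34476355, plus strand): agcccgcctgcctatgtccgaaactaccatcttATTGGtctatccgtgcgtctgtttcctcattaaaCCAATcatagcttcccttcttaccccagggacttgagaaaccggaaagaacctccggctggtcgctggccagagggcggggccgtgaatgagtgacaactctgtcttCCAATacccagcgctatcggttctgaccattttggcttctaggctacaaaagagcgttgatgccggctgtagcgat
The window of *Hbb-bs* held AGATAA, CCACACCC and CCAAT once each, *Hba-a1* held CCAAT once, *Alas2* held TTATCT and TTTATA once each, and *Bpgm* held CCAAT or its reverse 3 times. Among all 27025 RefSeq promoter windows of the same length, 10.3% held the GATA-type letters, 3.19% the KLF-type letters, 13.0% the TATA-type letters and 34.5% CCAAT. Of 10 genes looked up 9 had a window. A match describes letters in a window and not a bound site.

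In the cortical libraries, erythrocyte barcodes made up 18.3%, 18.0% and 18.3% of the deposited barcodes (mean 18.2% ± 0.162, SD, n = 3 technical replicates). In the hippocampal libraries they made up 0.593%, 0.518% and 0.409% (mean 0.506% ± 0.0925, n = 3 technical replicates). The cortical shares all lay far above the hippocampal ones. The intervals of the summed shares were 17.6% to 18.8% and 0.402% to 0.634%. These intervals cover counting error within 1 suspension per region and not the spread between suspensions or animals. The counts were 1069, 1103 and 1093 barcodes in cortex and 31, 27 and 20 in hippocampus. Region, age, preparation and the blood that perfusion left in the tissue cannot be told apart behind this difference.

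Every hippocampal library held more UMIs over fewer barcodes than any cortical one. The totals were 39662203, 41522304 and 42097490 UMIs over 5834, 6121 and 5982 barcodes in cortex, and 50024850, 47800210 and 43963706 UMIs over 5232, 5210 and 4894 barcodes in hippocampus. Globin UMIs of the erythrocyte barcodes alone took 12.9%, 14.5% and 18.1% of all UMIs of the cortical libraries, against 0.624%, 0.501% and 0.373% in hippocampus. Some barcode sequences occurred in more than 1 library. This held for 152 of 17937 barcodes in cortex and 993 of 15336 in hippocampus, where pairs of libraries shared 304, 274 and 257. Among erythrocyte barcodes it held for 27 of 3265 and 2 of 78.

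The globin limit of the rule fell in a sparse stretch. No barcode with fewer than 250 genes had a globin share between 30% and 50%. The erythrocyte barcode nearest the globin limit held 52.1% in cortex and 70.4% in hippocampus, and the nearest barcode outside held 29.0% and 17.4%. The histogram of globin shares shows this gap. The gene limit cut a tail that had no such gap in cortex. The nearest members held 246 and 223 genes and the nearest globin-rich barcodes outside 250 and 265. Those outside, 217 in cortex and 9 in hippocampus, held 721677 and 32047 non-globin UMIs, against 851387 and 20724 in the members. Several results moved without this limit, as given under the dependence on processing.

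**Figure D1:**
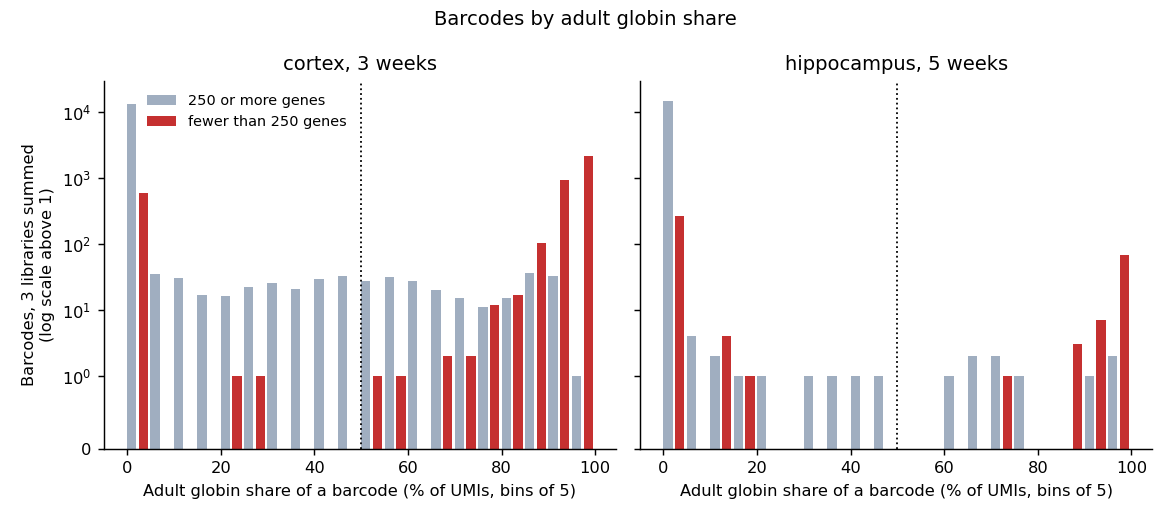
Histogram of the share of UMIs from the 4 adult globins (x axis, percent) for barcodes with fewer than 250 genes, with the number of barcodes on a log scale (y axis), and, in grey, for barcodes with 250 or more genes, in cortex and hippocampus. No barcode with fewer than 250 genes lies between 30% and 50%, and most erythrocyte barcodes sit above 95%.

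Defining markers that the rule did not use were present. *Alas2* took 3.02%, 3.02% and 3.27% of the non-globin UMIs of cortical erythrocyte barcodes and 4.33%, 4.23% and 3.87% of the hippocampal ones. *Bpgm* took 3.46%, 3.93% and 3.98% in cortex and 3.31%, 4.07% and 3.36% in hippocampus. These genes belong to the erythroid programme, and their shares in cortical reference cells were 4.25e-05% and 0.00387%. The label of erythrocytes was kept.

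Each erythrocyte barcode was deep in globin and shallow in all else. The median total was 6225 UMIs in cortex and 10072.5 in hippocampus, of which 209 and 206.5 were not globin, spread over a median of 77 and 106.5 genes. Reference cells held a median of 2238 and 2554 genes. The globin share of the summed UMIs was 94.6%, 95.6% and 96.5% in cortex and 97.2%, 97.1% and 97.2% in hippocampus. These shares follow from the rule and are given as a description. Over all erythrocyte barcodes, 851387 non-globin UMIs were left in cortex and 20724 in hippocampus, so hippocampal values rest on fewer molecules.

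Within the globins, beta transcripts outnumbered alpha transcripts in every library. The ratio of alpha (*Hba-a1* plus *Hba-a2*) to beta (*Hbb-bs* plus *Hbb-bt*) UMIs was 0.451, 0.427 and 0.483 in cortex and 0.638, 0.612 and 0.582 in hippocampus. The lowest hippocampal ratio exceeded the highest cortical one, with means of 0.454 ± 0.0282 and 0.611 ± 0.0280 (SD, n = 3 technical replicates). *Hbb-bs* was the most abundant globin, with 58.7%, 59.9% and 57.7% of globin UMIs in cortex and 51.1%, 52.7% and 54.5% in hippocampus. *Hbb-bt*, the other adult beta gene, reached 10.2%, 10.2% and 9.71% in cortex and 9.96%, 9.32% and 8.73% in hippocampus.

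*Hba-a1* held 18.7%, 17.8% and 18.6% of globin UMIs in cortex and 21.9%, 21.6% and 21.0% in hippocampus. *Hba-a2* held 12.4%, 12.2% and 13.9% and 17.1%, 16.4% and 15.8%. Both alpha genes thus had higher shares in all hippocampal libraries than in any cortical one. The split within each pair is uncertain. The transcripts of *Hba-a1* and *Hba-a2* differed at 1 of 538 aligned bases, and those of *Hbb-bs* and *Hbb-bt* at 46 of 626. Of the 90-base windows of *Hba-a1*, 58.9% occurred unchanged in *Hba-a2*, and of those of *Hbb-bs* 63.3% in *Hbb-bt*. How reads that fit both genes of a pair were counted was not examined. The alpha and beta totals and their ratio carry this doubt too. All 4 genes were detected in 99.8%, 99.8% and 99.6% of cortical and 100%, 96.3% and 95% of hippocampal erythrocyte barcodes.

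Globins outside the rule were led by the theta-globin genes. *Hbq1a* took 0.0857%, 0.0990% and 0.0984% of non-globin UMIs in cortex and 0.113%, 0.183% and 0.233% in hippocampus, with 1 UMI in all reference cells of either region. Its neighbour *Hbq1b* had 366 UMIs in cortical and 9 in hippocampal erythrocyte barcodes, although 33 of 562 aligned bases separate the pair and part of the reads cannot be assigned with certainty. The embryonic globin genes were nearly silent in cortex, with 19 UMIs of *Hbb-y*, 5 of *Hbb-bh1*, 1 of *Hba-x* and 1 of *Hbb-bh2*.

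A transcript was called higher when its share on summed UMIs was at least 4 times that of reference cells and the interval of the ratio lay above 1 in each of the 3 libraries, and lower by the same rule downwards. Genes with at least 20 UMIs, observed or given by the reference share, were compared. In cortex 203 of 6472 genes were higher (3.14%) and 5280 lower (81.6%). In hippocampus 78 of 193 genes were higher (40.4%) and 35 lower (18.1%). With no limit on genes 255 cortical genes were lower, and the hippocampal count of lower genes was 17 without replicate 1 and 23 without replicate 2. Fewer hippocampal barcodes left mainly abundant transcripts to compare, so the background shares of the regions differ by construction. A gene rare in reference cells passed this minimum only through its own UMIs in erythrocyte barcodes and had to lie above the reference share. This held for 138 of the compared genes in cortex, 98 of the 203 higher ones among them, and for 86 in hippocampus, 72 of the 78. Among genes that passed through their reference share, 105 of 6334 were higher in cortex (1.66%) and 5280 lower (83.4%), and 6 of 107 were higher in hippocampus (5.61%) and 35 lower (32.7%). Counts and medians of gene lists are therefore given over the genes of this second kind.

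The genes called higher, whose shares follow in part from that choice, took 75.1% of the non-globin UMIs of cortical and 58.7% of hippocampal erythrocyte barcodes, against 3.95% and 2.22% in reference cells. The repertoire was narrow, with 14 genes holding 50% of the non-globin UMIs in each cortical library and 23, 26 and 25 in the hippocampal ones, where reference cells needed 388 to 405 and 471 to 478 genes. All 35 genes lower in hippocampus were also lower in cortex, where 83.4% of all genes that passed through their reference share were lower.

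The counts depended on scaling. The median log2 ratio over genes that passed through their reference share was -3.32 in cortex and -1.50 in hippocampus. When ratios were centred on that median, 441 genes were higher and 1 lower in cortex, and 17 higher and 1 lower in hippocampus. Over all compared genes the hippocampal median was 0.90, so the direction of hippocampal values after centring depends on which genes are compared.

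Erythroid genes took far more of the message than in reference cells. The 89 genes of the 8 erythroid lists (haem synthesis, iron supply, membrane, metabolism, antioxidants, clearance of organelles and proteins, regulators and other late genes) took 30.8%, 34.3% and 34.9% of non-globin UMIs in cortex and 37.7%, 37.7% and 36.0% in hippocampus. In reference cells they took 1.21% and 1.53% on average, ratios of 27.6 (27.5 to 27.7) and 24.3 (23.8 to 24.9). With no limit on genes both ratios were lower, as given under the dependence on processing. Every erythrocyte library lay far above every reference value. The lists were chosen with earlier results of these data known, so their high summed shares may follow in part from that choice. Of the 89, 59 were compared in cortex, 19 of them only through their own UMIs, and 30 in hippocampus, 26 of them only so. Of the other 40 in cortex 23 were higher and 6 lower, with a median log2 ratio of 3.99, beside 1.66% and 83.4% of all such genes and a median of -3.32. Of the other 4 in hippocampus *Ftl1* and *Ubb* were higher and 0 lower. The summed share held 86.8 UMIs per cortical and 99.1 per hippocampal barcode. The plot of lists by log2 ratio sets them side by side.

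**Figure D2:**
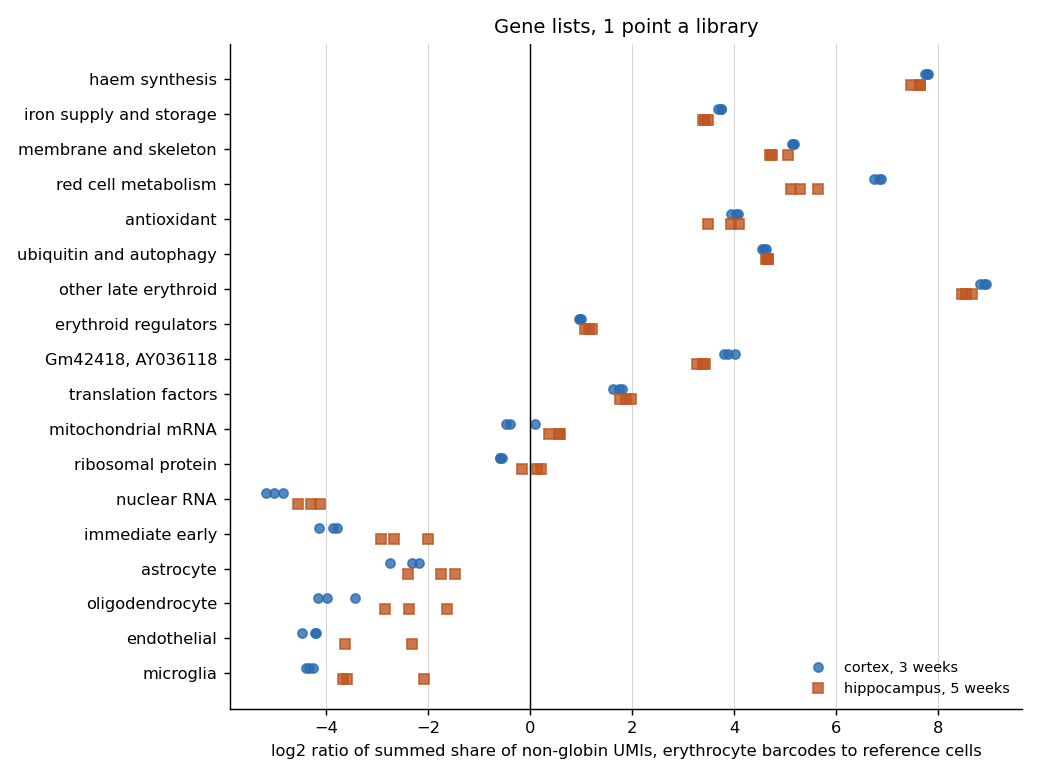
Log2 ratio of the share of non-globin UMIs in erythrocyte barcodes to that in reference cells for each gene list (y axis: lists), with 1 point per library for cortex and hippocampus. Erythroid lists lie to the right of 0, led by haem synthesis and other late genes, and the microglial, endothelial, astrocytic and oligodendrocytic lists and nuclear RNAs lie to the left.

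The haem synthesis genes with the highest ratios were those of its first and last enzymes. *Alas2* had 26399 UMIs in cortical erythrocyte barcodes against 37 in all cortical reference cells, a ratio of 73038 (52975 to 103757), and 868 against 4 in hippocampus. *Fech*, the ferrochelatase that inserts iron into the ring, took 0.424%, 0.454% and 0.452% of non-globin UMIs in cortex and 0.743%, 0.674% and 0.508% in hippocampus. Its ratio to reference cells was 229 (216 to 242) and 226 (189 to 268). No enzyme between them was called in cortex. *Urod* (uroporphyrinogen decarboxylase) had a ratio of 3.80 (3.13 to 4.58). *Alas2* and *Fech* passed the minimum only through their own UMIs in both regions, where their ratios had to be high. Of the 8 genes, the 4 that passed through their reference share in cortex were called in neither direction, and 3 of them were higher after centring.

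The iron genes were led by the ferritin light chain. *Ftl1*, the ferritin light chain, took 3.95%, 4.52% and 4.49% of non-globin UMIs in cortex and 5.40%, 5.03% and 4.99% in hippocampus, 27.3 (27.0 to 27.6) and 36.3 (34.2 to 38.6) times the reference share. *Fth1*, the heavy chain, was 4.82 times higher in cortex and 2.71 times in hippocampus, where it missed the 4-fold limit. *Slc25a37*, the mitochondrial iron importer, was 89.4 (85.1 to 93.9) and 145 (119 to 176) times higher. *Tfrc*, the transferrin receptor by which precursors take up iron, had 16 UMIs in all cortical erythrocyte barcodes and a ratio of 0.0975 (0.0557 to 0.158), and 1 UMI in hippocampus. Of 13 genes, 7 passed through their reference share in cortex, and 5 of these were higher and 2 lower, *Tfrc* and *Tmem14c* (a mitochondrial porphyrin transporter), beside 1.66% and 83.4% of all such genes. After centring 5 were higher and 0 lower. In hippocampus *Ftl1* was higher and *Fth1* not called among the 2 that passed in this way. *Slc25a37* passed there only through its own UMIs, so its hippocampal ratio had to be high.

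Of the transcripts for the membrane and its skeleton, *Slc4a1*, *Epb42* and *Cd24a* passed the minimum only through their own UMIs, so their ratios to reference cells had to be high. *Slc4a1*, the anion exchanger that carries bicarbonate, had 542 UMIs against 2 in cortical reference cells, a ratio of 27742 (7643 to 229655), and 6 against 2 in hippocampus. *Epb42*, which links the exchanger to the skeleton, had 52 UMIs against 0 in cortex, at least 1774 times the reference share with 3 counts over the group as the floor, and an exact interval of the ratio that begins at 1392. *Cd24a*, a surface glycoprotein gene, took 0.360%, 0.358% and 0.364% in cortex, 387 times the reference share, and was 147 times higher in hippocampus. *Epb41*, which ties spectrin to the membrane, was the most abundant member, at 0.417%, 0.426% and 0.437% in cortex and 0.518%, 0.646% and 0.613% in hippocampus. Of 20 members 10 were compared in cortex and 3 in hippocampus, but 8 and 3 of these only through their own UMIs, so no count of higher members is drawn from them. Of the other 2 in cortex *Epb41* was higher, and *Cd47*, a surface signal against engulfment, was not called.

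*Bpgm* led the metabolic genes and *Gpx1* the antioxidant ones. *Bpgm* was 977 (943 to 1013) times higher than in reference cells in cortex and 314 (291 to 338) times in hippocampus. *Blvrb* (biliverdin reductase B) was 26.6 and 28.2 times higher, and *Car2* (carbonic anhydrase) 15.5 times higher in cortex. In hippocampus *Car2* was not called, with library shares of 0.0563%, 0.239% and 0.486% against reference shares of 0.0806%, 0.0695% and 0.0787%. Of 4 metabolic genes compared in cortex 3 were higher and 1, the GMP reductase gene *Gmpr* with 5 UMIs, lower, with a median log2 ratio of 4.35. *Gpx1*, a glutathione peroxidase that removes hydrogen peroxide, took 1.07%, 1.14% and 1.25% in cortex and 0.811%, 1.46% and 1.42% in hippocampus. It was 43.4 (42.3 to 44.4) and 58.2 (51.1 to 66.0) times higher. Of 8 antioxidant genes compared in cortex 5 were higher and 1 lower, the superoxide dismutase *Sod1*, at 16 UMIs. Their median log2 ratio was 4.03. Of all cortical genes that passed through their reference share 1.66% were higher and 83.4% lower, with a median of -3.32. All of these cortical genes passed through their reference share, and in hippocampus 0 genes of either list did.

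Genes for the removal of proteins and organelles held the largest share of any erythroid list. They took 9.71%, 11.1% and 11.2% of non-globin UMIs in cortex and 12.2%, 11.8% and 11.8% in hippocampus, 24.0 (23.9 to 24.2) and 25.3 (24.3 to 26.4) times the reference share. *Ubb*, a polyubiquitin gene, led with 3.60%, 4.27% and 4.11% in cortex and 3.67%, 3.93% and 3.41% in hippocampus. The ubiquitin ligase gene *Mkrn1* was 353 (343 to 363) and 355 (328 to 384) times higher. *Ube2l6*, which encodes a conjugating enzyme for ubiquitin and ISG15, was 1110 (1035 to 1191) and 1476 (1300 to 1673) times higher. *Bnip3l*, the receptor by which reticulocytes hand mitochondria to autophagy, took 0.853%, 0.939% and 0.946% in cortex and 1.33%, 1.08% and 1.06% in hippocampus, and was 38.3 and 39.8 times higher. *Ube2l6* in both regions, and *Mkrn1* and *Bnip3l* in hippocampus, passed only through their own UMIs, so those ratios had to be high. Of 16 genes, 10 passed through their reference share in cortex, and 7 of these were higher and 2 lower, among the latter *Fundc1*, another mitophagy receptor gene, with a median log2 ratio of 4.44, beside 1.66% and 83.4% of all such genes and a median of -3.32. In hippocampus 2 did so, of which *Ubb* was higher and 0 were lower, beside 5.61% and 32.7%.

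Other late genes took 4.46%, 4.88% and 4.99% of non-globin UMIs in cortex and 5.88%, 5.31% and 4.86% in hippocampus. *Isg20*, an RNA exonuclease, was 832 and 1272 times higher, and *Fam46c*, a poly(A) polymerase, 186 and 243 times. *Isg20* in both regions and *Fam46c* in hippocampus passed only through their own UMIs, so those ratios had to be high. Of 7 genes, 3 passed through their reference share in cortex, where 2 were higher, beside 1.66% of all such genes, and *Xpo7* (an exportin) was not called, and 0 in hippocampus.

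Transcripts of the central erythroid transcription factors were few. *Gata1*, the central factor of the lineage, had 3 UMIs over all cortical erythrocyte barcodes, *Klf1*, the activator of the adult beta globin gene, had 2, and *Epor*, the erythropoietin receptor gene, had 0. In hippocampus all of these were at 0. *Hemgn*, a nuclear erythroid protein gene, passed only through its own UMIs, with 83 against 1 in cortical reference cells, a ratio of 8497 (1483 to 339587). *Lmo2*, which bridges the complex of these factors, had 443 UMIs and took 0.0484%, 0.0520% and 0.0559% in cortex, 2.02 times the reference share. The 11 listed regulators together stood at 1.97 times the reference share in cortex and 2.23 times in hippocampus, on 573 and 14 UMIs. Of these, 2 passed through their reference share in cortex, where neither was called and both were higher after centring, and 0 in hippocampus. Among 8 cell cycle genes, *Mki67* had 6 and *Top2a* 3 UMIs in cortex. *Pcna*, the replication clamp gene, had 5 and was the 1 of these genes that passed through its reference share. It was lower, beside 83.4% of all such genes, and was not called after centring. *Ube2c*, a conjugating enzyme of the anaphase-promoting complex, had 1580 and was 329 (297 to 365) times the reference share (34 UMIs and 159 times in hippocampus), but passed only through its own UMIs.

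**Figure D3:**
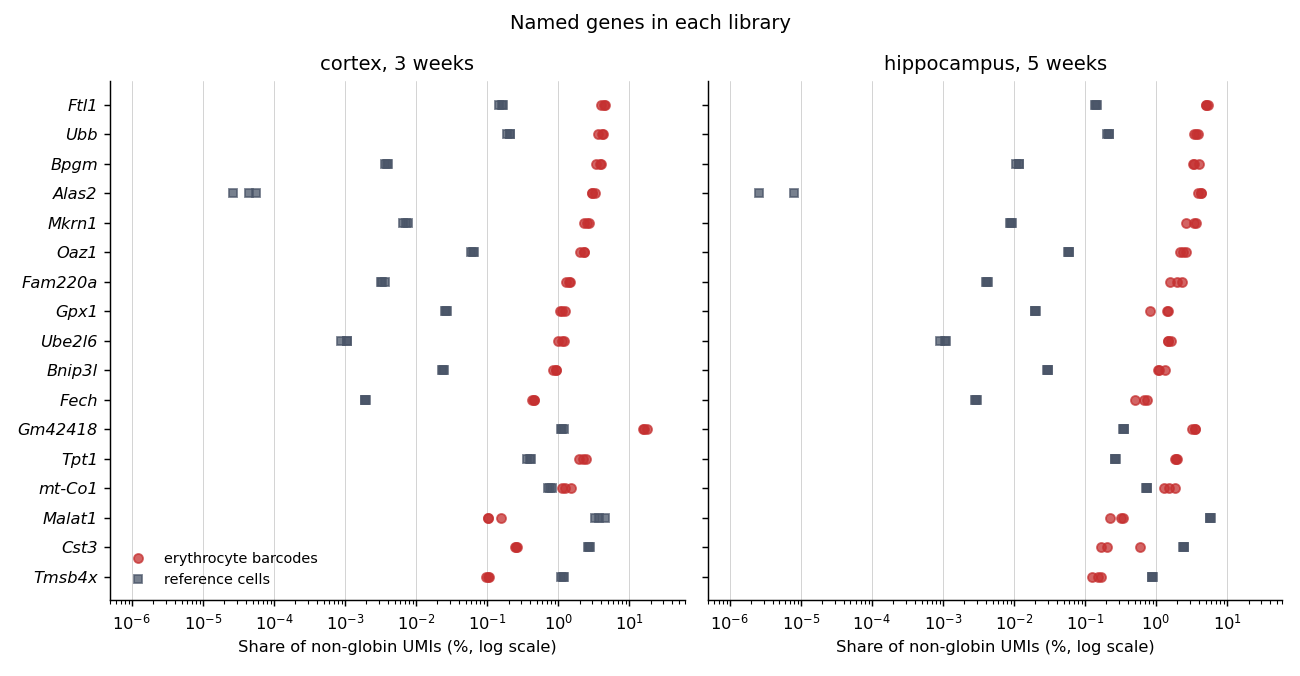
Share of non-globin UMIs (x axis, percent, log scale) of named genes (y axis) in each library, for erythrocyte barcodes and reference cells of cortex and hippocampus. Erythroid genes such as Alas2, Bpgm and Mkrn1 lie far to the right in erythrocyte barcodes, and Malat1 and Cst3 lie to the left of their reference values.

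The most abundant non-globin transcript in cortex belonged to no erythroid list. *Gm42418*, a lincRNA annotated at chr17:39846958-39848788 on the plus strand in sequence resembling ribosomal RNA, took 17.7%, 15.9% and 15.5% of non-globin UMIs in cortex and 3.15%, 3.53% and 3.55% in hippocampus. *AY036118*, at chr17:39847113-39848035 on the minus strand and so inside *Gm42418*, took 3.02%, 3.73% and 3.93% and 0.676%, 0.660% and 0.613%. All cortical shares lay above all hippocampal ones. Reference cells held 1.14% of *Gm42418* in cortex and 0.347% in hippocampus, ratios of 14.3 (14.3 to 14.4) and 9.71 (9.0 to 10.5), so cortical reference cells were also above hippocampal ones. Which strand a read came from decides between these overlapping genes, and the counting was the authors'.

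The genes with the largest ratios also included some that belong to no list. *Rec114*, *Tspo2* and *Apol11b* passed the minimum only through their own UMIs, so their ratios to reference cells had to be high. *Rec114*, which acts in meiotic recombination, had 1292 UMIs in cortical and 49 in hippocampal erythrocyte barcodes, 1863 (1466 to 2400) and 2169 (1527 to 3039) times the reference share. *Tspo2*, a relative of the translocator protein gene, had 770 UMIs against 4 in cortex. *Apol11b*, of the apolipoprotein L family, had 381 against 1, a ratio of 39002 (6958 to 1544490). Among the most abundant transcripts, *Sec61g*, a subunit of the channel for secreted proteins, took 2.76%, 2.12% and 1.60% in cortex and 2.06%, 2.33% and 2.09% in hippocampus. *Oaz1*, an inhibitor of polyamine synthesis, took 2.02%, 2.30% and 2.31% and 2.60%, 2.40% and 2.20%.

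Transcripts of ribosomal proteins and of mitochondria were present in every library. Ribosomal protein genes took 6.46%, 6.17% and 6.34% of non-globin UMIs in cortex and 8.54%, 6.72% and 7.91% in hippocampus, against 9.45% and 7.37% in reference cells, ratios of 0.670 and 1.05. Of 77 compared in cortex 1 was higher, *Rpl41*, a protein of the large subunit, and 24 lower, beside 83.4% of all such genes that were lower, with a median log2 ratio of -1.54 against -3.32. Of 36 in hippocampus the same gene was higher and 2 were lower, beside 32.7%, with a median of -0.43 against -1.50. After centring, 34 were higher and 0 lower in cortex, and 7 higher and 0 lower in hippocampus, where centring on all compared genes gave 1 higher and 8 lower. The genes encoded by mitochondrial DNA took 7.43%, 5.28% and 4.89% in cortex and 8.82%, 7.36% and 8.93% in hippocampus, against 6.87% and 5.84%, ratios of 0.858 and 1.43, and 0 of 13 and 0 of 9 were called in either direction. After centring, all 13 were higher in cortex and 3 of 9 in hippocampus, where centring on all compared genes gave 0.

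Within the translation machinery, members differed. *Tpt1*, a gene for a translationally controlled protein, took 1.95%, 2.22% and 2.45% in cortex and 1.88%, 1.97% and 1.84% in hippocampus, 5.64 (5.56 to 5.72) and 7.14 (6.45 to 7.88) times the reference share. *Pabpc1*, the cytoplasmic poly(A)-binding protein, was 12.7 and 19.1 times higher. *Eef1a1*, the elongation factor that brings transfer RNA to the ribosome, had a ratio of 0.226 (0.205 to 0.248) in cortex and 0.352 (0.205 to 0.564) in hippocampus. Of 8 genes compared in cortex 3 were higher and 3 lower, beside 1.66% and 83.4% of all such genes. Of 3 that passed through their reference share in hippocampus 1 was higher and 0 lower, beside 5.61% and 32.7%. *Pabpc1* passed there only through its own UMIs, so its hippocampal ratio had to be high. After centring, 4 were higher and 0 lower in cortex, and 2 higher and 0 lower in hippocampus. Centring on all compared genes gave 1 higher and 1 lower in hippocampus.

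Nuclear RNAs were led by *Malat1*. *Malat1*, a long non-coding RNA kept in nuclear speckles, took 0.156%, 0.102% and 0.102% of non-globin UMIs in cortex and 0.338%, 0.225% and 0.317% in hippocampus. In reference cells it took 3.89% and 5.81% on average, so the ratios were 0.0310 (0.0291 to 0.0330) and 0.0507 (0.0388 to 0.0651). *Xist*, which coats the inactive X chromosome in female nuclei, had a ratio of 0.0389 (0.0296 to 0.0504) in cortex and 2 UMIs in hippocampus. All 4 nuclear RNAs compared in cortex and both compared in hippocampus were lower, beside 83.4% and 32.7% of all genes, with medians of -4.67 and -4.19 against -3.32 and -1.50. After centring on those medians, 0 of the 4 in cortex and 1 of the 2 in hippocampus were called lower.

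Transcripts of other cells were looked for with lists of markers. The 51 markers of microglia, endothelial, mural, astrocytic, oligodendrocytic, precursor and neuronal cells together took 0.339%, 0.298% and 0.340% of non-globin UMIs in cortex and 0.552%, 1.38% and 0.888% in hippocampus, against 4.19% and 4.94% in reference cells. This was 0.849 UMIs per cortical and 2.42 per hippocampal barcode. With no limit on genes, the marker shares lay nearer to those of reference cells, as given under the dependence on processing. Of 41 compared in cortex 40 were lower, beside 83.4% of all genes, with a median log2 ratio of -4.09, and 0 were lower after centring. Of 13 in hippocampus 10 were lower, beside 32.7% of all genes (median -2.83), and 0 after centring, where centring on all compared genes gave 12. Free RNA in the droplets was not measured separately, and its part in these shares was not tested.

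Microglial markers were the most numerous in cortex after those of astrocytes. The 10 microglial genes summed to 991 UMIs in cortex, led by *C1qb* (a complement subunit) with 198, and to 58 in hippocampus, with *C1qb* at 13. Their shares were 0.106%, 0.118% and 0.126% in cortex and 0.158%, 0.506% and 0.169% in hippocampus, 0.0497 and 0.136 times the reference share. The defining receptors *P2ry12* and *Cx3cr1* had 64 and 55 UMIs in cortex and 1 each in hippocampus. The 8 astrocytic genes summed to 1213 UMIs in cortex, led by the glutamate transporter gene *Slc1a2* with 362, and to 27 in hippocampus. Endothelial genes summed to 327 UMIs, with *Cldn5*, a tight junction gene, at 114, and to 9 in hippocampus. Mural genes summed to 143 and 14 UMIs, and genes of oligodendrocyte precursors to 8 and 3.

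Markers of other blood cells were at or near 0. Platelet genes summed to 1 UMI in cortex, with 5 of 6 markers at 0, and to 0 in hippocampus. All 6 T and NK cell markers were at 0 in both regions. Neutrophil genes summed to 7 and 0 UMIs, monocyte genes to 1 and 0, B cell genes to 6 and 1, macrophage genes to 9 and 0, and fibroblast genes to 5 and 0. In hippocampus the lists at 0 had upper limits of the ratio to reference cells from 2.17 (macrophage) to 13.9 (monocyte). Those zeros thus do not show shares below those of reference cells. The 7 neuronal genes summed to 10 and 1. All 5 class I antigen presentation genes compared in cortex were lower, as were all 12 immediate early genes, beside 83.4% of all such genes. After centring on the median of all genes, 0 of either list were lower in cortex, and the medians of the antigen presentation genes and of the astrocytic genes turned to 0.50 and 0.75 above it on the log2 scale.

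Hippocampal erythrocyte barcodes differed in carrying genes of choroid plexus and myelin. *Ttr*, the transthyretin gene of the choroid plexus, had 73 UMIs over the 78 hippocampal barcodes, at 0.259%, 0.309% and 0.593% of non-globin UMIs, and 4 over the cortical ones. *Mbp*, a gene of myelin, had 32 UMIs in hippocampus and 20 in cortex. *Ttr* and *Mbp* were also 39.0 and 12.2 times higher in hippocampal than in cortical reference cells. Oligodendrocyte genes summed to 77 UMIs in hippocampus and 81 in cortex, and choroid plexus genes to 79 and 7.

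To see how many single barcodes carried a transcript, each was thinned to 30 non-globin UMIs, leaving out 15 shallower cortical and 0 hippocampal barcodes. At that depth *Alas2* was found in 54.2% ± 0.855 (SD, n = 3 technical replicates) of cortical and 60.6% ± 16.2 of hippocampal erythrocyte barcodes, and in 0 of 12821 and 0 of 14188 reference cells, where the exact upper bound on detection at this depth was at most 0.088% in any library. Unthinned, it was found in 86.4% and 88.7%, against 0.290% and 0.0288% of reference cells, at median depths of 209 and 206.5 non-globin UMIs for erythrocyte barcodes and 5790 and 6771.5 for reference cells. *Ftl1* was found in 71.6% ± 2.97 and 67.2% ± 10.3 after thinning, against 5.08% and 4.27% of reference cells, and in 96.3% and 94.4% unthinned, against 95.7% and 92.2%. *Mkrn1* was found in 35.4% ± 1.82 and 37.4% ± 7.59, against 0.311% and 0.255%, and unthinned in 64.1% and 62.3%, against 35.0% and 43.8%. These transcripts were thus spread over many single barcodes. *Malat1* was found in 4.75% ± 1.34 and 11.2% ± 4.48, against 54.7% and 63.9% of reference cells, and unthinned in 24.9% and 49.4%, against 94.5% and 96.2%.

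Composition changed with the depth of the barcode. Erythrocyte barcodes of each library were divided by total UMIs into 3 parts of equal size, with medians of 1796.5, 6232 and 9569 UMIs in cortex and 2011, 10449 and 15987 in hippocampus. The summed erythroid lists took 16.2%, 32.0% and 37.9% of non-globin UMIs from the lowest to the highest cortical part, and 16.5%, 34.2% and 44.0% in hippocampus. *Bpgm* took 0.509%, 3.33% and 4.78% in cortex and 0.714%, 2.30% and 4.95% in hippocampus. The highest part stood above the lowest 9.40 times (8.65 to 10.2) and 6.94 times (4.50 to 11.3), or by 3.23 and 2.80 on the log2 scale, against 2.14 and 1.65 with no limit on genes. In the 3 cortical libraries the lowest part lay between 0.449% and 0.538% and the highest between 4.37% and 5.02%, so the parts did not overlap. The parts were defined by total UMIs, which are mostly globin, and non-globin medians rose along with them from 90 to 412 in cortex and 105 to 446 in hippocampus.

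Single genes differed in how far their shares in the parts lay apart. *Gpx1* took 0.0549%, 0.837% and 1.57% over the cortical parts, a ratio of 28.5 (22.2 to 37.3), and 0%, 0.201% and 1.96% in hippocampus. *Mkrn1* was 14.4 times (12.7 to 16.4) higher in the highest part in cortex and 39.5 times (13.4 to 192) in hippocampus, there from 3 UMIs. *Alas2* took 1.76%, 3.69% and 3.1% in cortex and 2.68%, 5.26% and 4.02% in hippocampus, highest in the middle part in both. *Ftl1* took 4.69%, 5.12% and 3.79% in cortex, so the highest part stood at 0.809 (0.785 to 0.835) of the lowest, against 1.43 times (1.16 to 1.77) in hippocampus. By list, the highest part held 10.3 and 12.6 times the antioxidant share of the lowest and 8.77 and 7.46 times the metabolic share, against 1.88 and 1.55 times for haem synthesis and 1.04 and 1.51 times for iron supply.

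Other transcripts took smaller shares in the deep barcodes. *Gm42418* took 28.5%, 18.3% and 12.6% over the cortical parts and 5.13%, 4.27% and 2.48% in hippocampus. Ribosomal protein genes took 11.8%, 6.71% and 4.86% in cortex, and their highest part stood at 0.410 and 0.509 of the lowest. The markers of brain cells took 0.700%, 0.384% and 0.208% in cortex and 2.07%, 1.11% and 0.525% in hippocampus. Per barcode, these markers stood at 0.714 UMIs in the lowest and 0.925 in the highest cortical part and 2.26 and 2.48 in hippocampus. Over the same parts *Gm42418* went from 29.1 to 55.8 UMIs per cortical barcode, ribosomal protein genes from 12.1 to 21.5 and mitochondrial transcripts from 7.63 to 24.0. Erythroid list UMIs rose over the same parts from 16.5 to 168 per barcode in cortex and from 18.0 to 208 in hippocampus. The plot of shares by depth shows the courses of single genes.

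**Figure D4:**
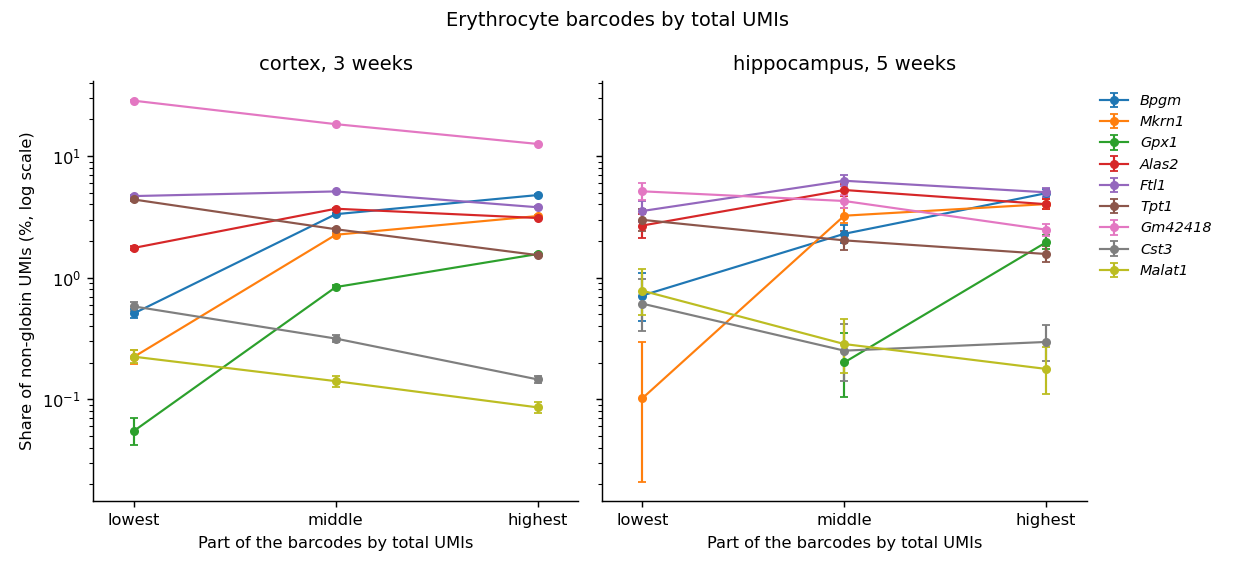
Share of non-globin UMIs (y axis, percent, log scale) of selected genes in erythrocyte barcodes divided into 3 equal parts by total UMIs (x axis), summed over the 3 libraries of cortex or hippocampus, with exact 95% intervals as bars. Bpgm and Gpx1 climb from the lowest to the highest part, Gm42418 and Malat1 decline, and Gpx1 has no point where it was at 0.

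Erythrocyte barcodes of the regions were then set side by side. The deposited gene tables differed, with 31053 genes in cortex and 27998 in hippocampus, and only the 27514 identifiers in both were used, so annotation and counting cannot be told apart from region either. Of 138 genes with enough UMIs, 9 were at least 2 times higher in cortex with an interval above 1 (6.52%) and 9 at least 2 times higher in hippocampus (6.52%), and 87.0% of the genes lay within 2-fold. The cortical count was 5 without hippocampal replicate 2, and the hippocampal count was 5 with *Gm42418* and *AY036118* left out. Across these genes, which are not independent replicates and share libraries, log2 shares had a Pearson correlation of 0.768. *Bpgm* had a ratio of cortex to hippocampus of 1.05 (0.980 to 1.14). *Alas2* stood at 0.740 (0.692 to 0.793) and *Ftl1* at 0.832 (0.783 to 0.885), with no overlap between the libraries of the regions for either. How many of all compared genes lacked such overlap is not given, so this does not set either gene apart. With *Gm42418* and *AY036118* left out of the totals, the ratios of cortex to hippocampus were 0.887 for *Alas2*, 0.998 for *Ftl1* and 1.26 for *Bpgm*.

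The genes higher in cortex were led by *Gm42418* at 4.86 times (4.51 to 5.24) and *AY036118* at 5.40 times (4.57 to 6.44), which in reference cells were 3.29 and 4.16 times higher. *Ncoa4*, the receptor that sends ferritin to autophagy, was 3.32 times (1.85 to 6.66) higher in erythrocyte barcodes and 13.2 times in reference cells. *Gm10076* was 3.78 times (2.47 to 6.12) higher, but its cortical libraries held 0.611%, 0.407% and 0.116% and overlapped the hippocampal 0.0338%, 0.0563% and 0.296%. *Mpp1*, a membrane skeleton protein of red cells, was 2.24 times (1.25 to 4.51) higher on 11 hippocampal UMIs, and *Creg1*, *Fam213a* and *Yipf4* were 2.02, 2.03 and 2.78 times higher.

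Genes higher in hippocampus included, besides *Ttr* and *Mbp*, the nuclear RNA *Malat1* at 2.44 times (1.85 to 3.16), and *mt-Nd1* and *mt-Nd4*, subunits of respiratory complex I, at 2.49 (1.96 to 3.13) and 2.17 times (1.79 to 2.60). For these 5 genes the libraries of the regions did not overlap. The share of all compared genes without such overlap is not given, so this does not set these genes apart. In reference cells the ratios of *Malat1*, *mt-Nd1* and *mt-Nd4* were 1.49, 1.00 and 1.05. *Cox7b*, a subunit of cytochrome oxidase, *Elob*, a subunit of elongin, and *Ybx3*, an RNA-binding protein gene, were 2.10, 2.18 and 2.03 times higher, with libraries that overlapped between regions for *Elob* and *Ybx3*. With *Gm42418* and *AY036118* left out, *mt-Nd4*, *Cox7b*, *Elob* and *Ybx3* no longer reached 2-fold, at ratios of cortex to hippocampus of 0.553, 0.570, 0.550 and 0.589. By list, the erythroid genes took 33.3% of summed non-globin UMIs in cortex and 37.3% in hippocampus, a ratio of 0.892 (0.872 to 0.913). That direction turned when *Gm42418* and *AY036118* were left out, to 0.10 on the log2 scale from -0.16.

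**Figure D5:**
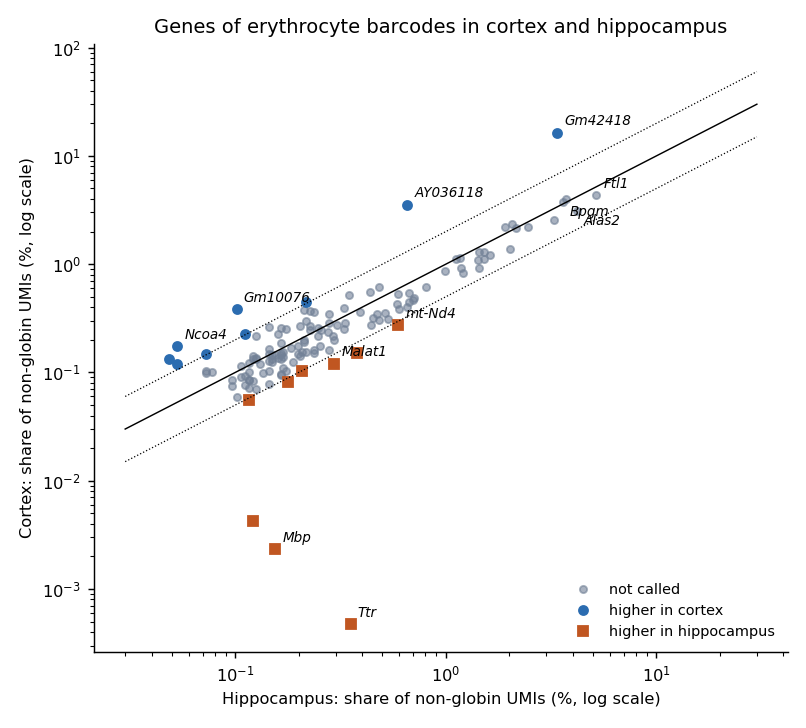
Share of non-globin UMIs in hippocampal (x axis) against cortical (y axis) erythrocyte barcodes, in percent on log scales, with 1 point per gene, the line of equal shares (solid) and those of 2-fold difference (dotted). Most genes lie within 2-fold of the line, Gm42418 and AY036118 lie on the cortical side, and Ttr lies far on the hippocampal side.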

How the data were processed

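Single-cell libraries of 6 technical replicates were analysed. Per the labels, the authors deposited raw UMI counts per gene and barcode, made with Cell Ranger 5.0.1 on mm10 by the submitters' processing notes (matrix headers name 3.0.1 for cortex and 3.1.0 for hippocampus). Cortical matrices list 31053 genes and hippocampal ones 27998. The preparation numbered 2 was not analysed here. Counts were summed per library with Python 3.11.15, NumPy 2.4.6, SciPy 1.17.1, pandas 2.3.3 and Matplotlib 3.10.9. The calls were tried on simulated data with counting error only, which leave out any other variation between libraries. Ratios of shares have exact conditional intervals, and no test across samples was possible, since each region was 1 suspension. No doublet caller was run, and globin-rich barcodes with 250 or more genes are given separately. Named genes were the markers, the 15 most abundant, the 20 higher genes with the largest ratios, the lowest and most abundant lower genes, and 2 to 6 members of each list by abundance. Members and lists were chosen with earlier results of these data known. Coordinates are GENCODE M21 on GRCm38 and promoter starts are RefSeq's. Some genes that the rule names are not reported here.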

Additional observations from a re-analysis of the deposited data

Results flagged for a closer look

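For some mitochondrially encoded transcripts of erythrocyte barcodes the ratio to reference cells lay below 1 in every cortical and above 1 in every hippocampal library. None of them was called. The share of *mt-Nd1*, a subunit of respiratory complex I, was 0.505 of that in reference cells in cortex (0.609, 0.438 and 0.448 by library) and 1.25 times in hippocampus (1.29, 1.36 and 1.03). *mt-Nd2* stood at 0.557 (0.736, 0.437 and 0.480) and 1.24 (1.32, 1.11 and 1.29), and *mt-Nd4* at 0.635 (0.869, 0.519 and 0.514) and 1.30 (1.37, 1.07 and 1.50). The difference between regions was not tested. The cortical direction depended on scaling. All 13 genes compared were higher in cortex after centring on the median of genes that passed through their reference share. The summed mitochondrial list turned from -0.22 to 0.081 on the log2 scale with *Gm42418* and *AY036118* left out. That value covers the whole list and not *mt-Nd1*, *mt-Nd2* or *mt-Nd4* singly.

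Barcodes outside the rule also carried signals. Those with more than 50% globin but 250 or more genes, 217 in cortex and 9 in hippocampus, had medians of 963 and 1186 genes. Erythroid lists took 5.94% and 7.65% of their non-globin UMIs and brain cell markers 3.78% and 4.23%. Barcodes with fewer than 250 genes and at most 50% globin, 597 and 275, held 92.2% and 76.0% of non-globin UMIs from mitochondrial transcripts, and *Ttr* took 8.84% in the hippocampal ones.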

How the results depend on the processing

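No paired analysis was possible because no result came from a test and the replicate numbers mark technical replicates. Over the alternatives, results that answer a comparison stayed within set bounds in 175 recomputations, moved beyond them in 48 and reversed in 2. Values for single genes and lists did so in 411, 166 and 6. A count stayed within bounds when it changed by no more than a set factor. Any other value did so when it shifted by less than the SD of the technical replicates without a change of sign. The causes were not tested. Ratios below are on the log2 scale.

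With no limit on genes, the erythroid lists stood at 4.10 in cortex and 3.65 in hippocampus (4.79 and 4.60 as reported), brain markers at -1.14 and -0.75 (-3.69 and -2.44), and *Bpgm* between highest and lowest part at 2.14 and 1.65 (3.23 and 2.80). Then 255 cortical genes were lower (5280 as reported), *Alas2* was found in 52.0% of cortical barcodes, 16 genes were higher in cortex and 34 in hippocampus, and *Gm42418* with *AY036118* stood at 2.55 between regions. Signs turned for mitochondrial transcripts in cortex (0.034 from -0.22) and between regions (0.081 from -0.50), endothelial genes (0.26) and *Cst3* (0.043) in hippocampus, and the erythroid lists between regions (0.11 from -0.16). With fewer than 150 genes, the erythroid lists stood at 4.72 and 4.39 and at -0.010 between regions, *Bpgm* at 3.57 in cortex, and 46 hippocampal genes were higher and 11 lower.

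The cortical erythroid lists stood at 4.72 with no globin limit on reference cells. Without mitochondrial and ribosomal protein genes they stood at 4.72 and 4.65, and with each barcode given the same weight at 4.61 and 4.56, with brain markers at -3.33 and -1.73. Scaling by the median ratio gave 573 higher and 2 lower genes in cortex and 58 lower in hippocampus. Comparing genes by their reference share alone, chosen after seeing the data, gave 105 higher genes in cortex and 6 in hippocampus, and with scaling by their median 441 and 17 higher and 1 and 1 lower. A minimum of 50 UMIs gave 2494 lower genes in cortex and 41 higher and 11 lower in hippocampus. Thinned to 15 UMIs, *Alas2* was found in 35.9% of cortical barcodes. Leaving out *Gm42418* and *AY036118*, also chosen after seeing the data, gave 5.09 and 4.66 for the erythroid lists, -3.39 for cortical brain markers, 5 genes higher in hippocampus, and turned mitochondrial transcripts in cortex (0.081) and the erythroid lists between regions (0.10).

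Leaving out 1 replicate at a time left 2162 to 2196 cortical and 47 to 58 hippocampal barcodes, 17 to 27 hippocampal genes lower (17 without replicate 1, 23 without replicate 2), and 5 to 8 genes higher in cortex than hippocampus (5 without hippocampal replicate 2). Ribosomal protein genes in hippocampus ranged from -0.036 (without replicate 1) to 0.19, from 0.07 with all. The 78 hippocampal barcodes limit the precision of all hippocampal values.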

Other observations

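Some genes outside the lists, chosen after their values were seen, also stood higher in erythrocyte barcodes. *Isca1*, which acts in the assembly of iron-sulfur clusters, took 0.241%, 0.340% and 0.285% of non-globin UMIs in cortex and was 109 times (103 to 116) higher than in reference cells, and 155 times (120 to 196) in hippocampus. *Iscu*, the scaffold of the same assembly, was 12.1 and 14.1 times higher. *Rsad2*, an interferon-induced antiviral gene, was 208 and 83.6 times higher, and *Isg15*, the ubiquitin-like modifier, 33.5 and 27.5 times. *Riok3*, an atypical kinase gene, was 36.9 and 62.1 times higher. None of these genes passed the minimum through its reference share in hippocampus, so the ratios there had to be high.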
